A study of Mus musculus with 8 samples.

Results

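T cell receptor gene segments are the germline pieces from which each developing T cell assembles its antigen receptor. They were found on these arrays as the probe sets whose platform annotation gives exactly 1 gene symbol with a receptor segment prefix. That rule gave 21 probe sets with 8 symbols among 23521 probe sets with 1 symbol, and 41345 probe sets in all. All 8 are variable (V) segments in the RefSeq gene table. That table lists 130 genes with the Trav prefix and 35 with the Trbv prefix, so most V segments had no probe set under this rule. Of the 21 probe sets, 18 carried 5 alpha chain symbols (Trav12-2, Trav7-4, Trav9d-3, Trav14d-3-dv8 and Trav3-4), 1 carried the beta chain segment Trbv13-2, and 2 carried the gamma chain segments Trgv5 and Trgv6. No joining segment, constant region or delta-only segment had a probe set with 1 symbol, and 1 further probe set that names a Trav segment together with another gene was left out by the rule.

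The cells were CD4+ T cells from a transfer model of colitis. Naive CD4+CD62L+ T cells of wt donors, marked by CD45.1, and of Irak1-/- donors, marked by CD45.2, both labelled C57BL/6, were mixed in equal numbers and injected into Rag1-/- mice, which make no T or B cells of their own. On day 14, CD3+CD4+ cells of both donor types were sorted from mesenteric lymph nodes at a labelled purity above 99.5%. The experiment was done 4 times with 2 pooled recipients each time, and every run yielded a wt and an Irak1-/- array, hence 4 pairs with shared recipients. The labels name neither the deleted part of Irak1, nor the number of donors, nor the age of the animals. IRAK1 is a kinase that relays signals from IL-1 family and Toll-like receptors.

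An alpha-beta T cell carries a single rearranged beta chain and usually a single working alpha chain, each beginning with a V segment picked during recombination in the thymus. The progeny of a T cell keep its receptor, so the level of a V segment in a population follows which cells have expanded as well as how much receptor RNA each holds. In a bulk sample, fewer cells with a segment and less RNA per cell cannot be told apart. The alpha chain V region of C57BL/6 mice holds duplicated blocks of near-identical segments, marked d and n in their names. The RefSeq table lists 14 genes in the Trav7 family, 11 in Trav9, 10 in Trav12, 9 in Trav14 and 8 in Trav3, so the assignment of a probe set to 1 symbol is uncertain. For this reason each probe set is given by its number, and levels of different probe sets, which hybridize differently, are not set against each other.

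Both sorted populations showed T cell markers on every array. The CD3 chain genes Cd3d, Cd3e and Cd3g, whose products carry every T cell receptor to the surface, had mean log2 levels between 10.71 and 11.26, and array medians over the whole table lay between 4.25 and 4.31. Of 5 measured B cell markers, Ms4a1 alone lay under every array median, and their summed level was 7.75 to 8.38 in wt and 7.76 to 8.64 in Irak1-/- arrays (log2). Of 4 measured thymocyte markers, the recombination genes Rag2 and Dntt lay under every array median, while Ptcra and Cd1d1 did not. Ptcra read from 4.44 to 5.25 on the 8 arrays. The summed level of the 4 was 6.07 to 6.40 in wt and 6.25 to 6.48 in Irak1-/- arrays (log2). Irak1 itself read from 6.39 to 7.16 on the wt arrays, and all 4 Irak1-/- arrays lay within that range. The Irak1-/- array of replicate 3 stood somewhat apart, with correlations of 0.971 to 0.978 with the others against 0.983 to 0.989 among the other 7. Myeloid markers differed between the genotypes: their summed level on the log2 scale was 7.71 to 8.07 in wt and 9.08 to 10.11 in Irak1-/- arrays. Of these 8 markers, 3 passed the genotype test given below, at an adjusted p under 0.05. Among all 23521 probe sets 9, or 0.0383%, did. Cd14 lay under every array median.

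The measured V segments varied from array to array far more than most genes. The median standard deviation (SD) over the 8 arrays was 0.503 on the log2 scale for the 21 probe sets and 0.208 for all 23521. An SD above 2 times that overall median was found in 15 of the 21 and in 5.84% of all probe sets. After the 2 pairs of probe sets with identical values on every array (17299849 with 17299926, and 17299857 with 17299934, all named Trav12-2) were each counted once, 13 of 19 distinct profiles lay above it. The median range between the highest and the lowest array was 1.57 for the 19 profiles and 0.618 for all probe sets. The count of 15 was 11, beside 6.65% of all probe sets, without the wt array of replicate 1, and 15, beside 6.04%, without the Irak1-/- array of replicate 3.

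The wide spread was also seen among probe sets with higher levels alone. With only probe sets at or above the 60th percentile of mean level, 17 segment probe sets remained, their median SD was 0.525, and that of all such probe sets was 0.185. Of those 17, 14 exceeded 2 times the median SD, a mark passed by 6.87% of all probe sets at these levels. In the whole table, probe set 17300032 of Trav12-2 ranked 11 by SD of the 23521, and 17299991 of Trav7-4 ranked 16. The latter, at the 43.0 percentile of mean level, was not among the 17.

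**Figure D1:**
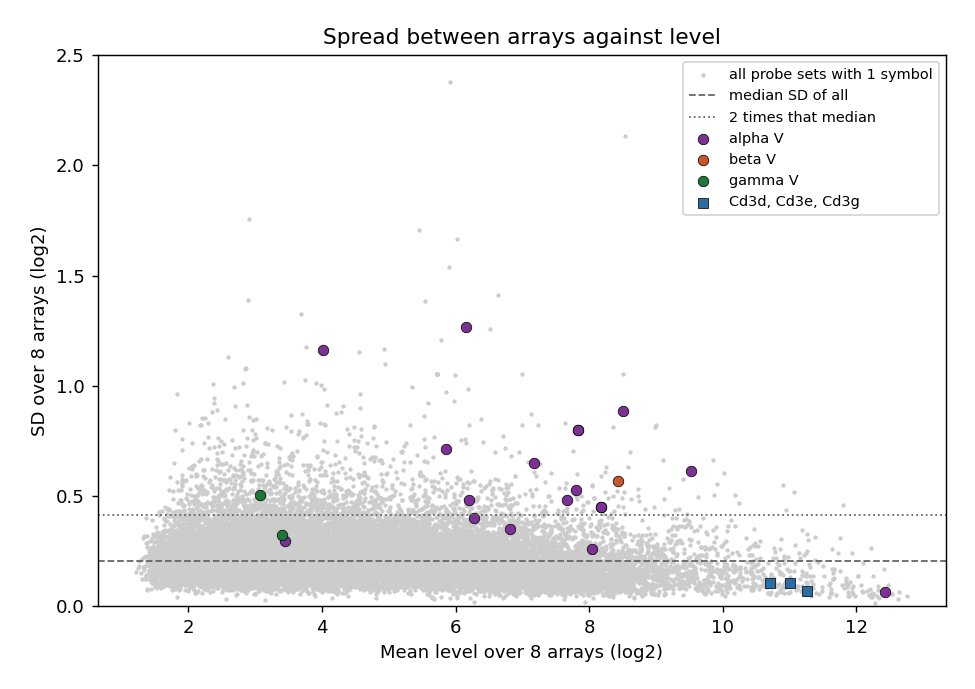
SD over the 8 arrays against the mean log2 level for every probe set with 1 symbol (grey) and for the T cell receptor segments (circles), with the CD3 chain genes as squares; the dashed line marks the median SD of 0.208 and the dotted line 2 times that value. Most alpha and beta V segments lie above the dotted line, while the CD3 chain genes and Trav9d-3 probe set 17300247 lie below the dashed line.

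The invariant parts of the same receptor complex were steady on the same arrays. Cd3d had an SD of 0.0690, Cd3g 0.107 and Cd3e 0.108 over the 8 arrays, at the 1.13, 7.66 and 7.82 percentiles of all probe sets. Their mean levels were at the 99.6, 99.5 and 99.3 percentiles, and whether their SDs were low for such levels was not tested. Lat, the adaptor that gathers signalling proteins after receptor triggering, had an SD of 0.0788, and Zap70, the kinase that phosphorylates it, 0.117. Cd4, the coreceptor by which the cells were sorted, had 0.194. Among 12 measured partner genes of the receptor the median SD was 0.214, close to that of all genes, and the highest was 0.442 for Cd8b1, a chain of the CD8 coreceptor. Cd6 and Trat1, surface and transmembrane regulators of receptor signalling, had 0.352 and 0.354. Of 9 measured genes of V(D)J recombination and end joining, 1, the ligase gene Lig4, had an SD above the overall median, at 0.300.

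Trav12-2 held the widest swing, and it came from a single array. Probe set 17300032 read 9.15, 5.09, 6.04 and 6.17 in wt replicates 1 to 4 and 5.29, 5.87, 5.66 and 5.92 in Irak1-/- replicates 1 to 4. The wt array of replicate 1 was 2.99 above the next highest array on the log2 scale, a 7.93-fold gap, while the other 7 arrays spanned 1.07. Its SD was 1.27 over all arrays and 0.398 without that array. The Irak1-/- cells from the same recipients, replicate 1, read 5.29, the second lowest value.

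The same wt array stood highest in further Trav12-2 probe sets. Probe set 17299849, with its identical twin 17299926, read 9.63, 6.95, 7.83 and 7.70 in wt and 7.32, 7.48, 7.96 and 7.76 in Irak1-/- arrays, a gap of 1.67 between wt replicate 1 and the next array. Probe set 17299857, identical to 17299934, read 9.11, 7.83, 8.19 and 8.30 in wt and 7.72, 7.75, 8.22 and 8.33 in Irak1-/- arrays, with a gap of 0.78. Leaving out wt replicate 1 took the SD of these profiles from 0.798 to 0.350 and from 0.450 to 0.269. The last Trav12-2 probe set, 17300173, had another order. It read 9.73, 9.21, 9.98 and 9.22 in wt and 9.22, 8.45, 10.44 and 9.87 in Irak1-/- arrays, so that the highest array was Irak1-/- replicate 3 and the lowest Irak1-/- replicate 2.

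Trav7-4 varied strongly on each of its 3 probe sets, and their highest arrays were not the same. Probe set 17300155 read 10.00, 7.10, 8.51 and 8.84 in wt and 7.67, 8.21, 9.14 and 8.54 in Irak1-/- arrays. Here wt replicate 1 was highest, as on most Trav12-2 probe sets, and wt replicate 2 lowest, a range of 2.90 or 7.47-fold. The gap to the next array was 0.86, and the remaining arrays still spanned 2.04. Leaving out wt replicate 1 took the SD from 0.887 to 0.701. Probe set 17299991 read 3.85, 2.76, 2.93 and 5.98 in wt and 5.20, 2.96, 3.95 and 4.53 in Irak1-/- arrays. Its highest value came from wt replicate 4, 3.23 above the lowest, and 5 of the 8 arrays lay under every array median, so the size of that range is uncertain. Probe set 17299796 read 7.71, 6.96, 7.83 and 8.41 in wt and 8.09, 7.28, 7.25 and 7.83 in Irak1-/- arrays, again highest in wt replicate 4, with a narrower range of 1.45.

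**Figure D2:**
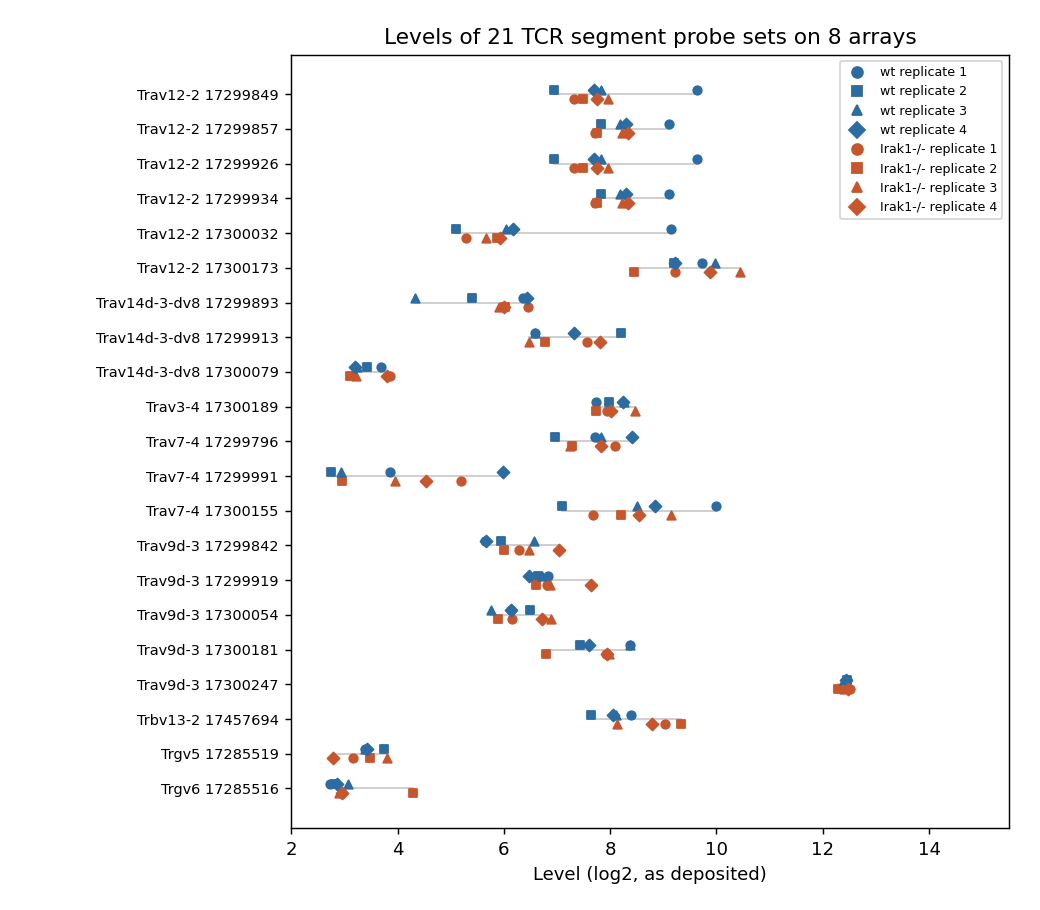
Deposited log2 level of each of the 21 probe sets on each array, with wt in blue, Irak1-/- in orange, a marker shape for each replicate and a grey line from the lowest to the highest array. Wt replicate 1 (blue circle) lies alone at the right for Trav12-2 probe sets 17299849, 17299857 and 17300032, and the 2 genotypes overlap in every row.

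Trav14d-3-dv8, whose suffix marks a segment that can also join a delta chain, differed between arrays in other ways. Probe set 17299893 read 6.36, 5.41, 4.32 and 6.44 in wt and 6.45, 6.02, 5.90 and 6.00 in Irak1-/- arrays. The spread lay in the wt arrays, with an SD of 0.991 (n = 4), while the Irak1-/- arrays had 0.243. Probe set 17299913 read 6.59, 8.21, 6.59 and 7.33 in wt and 7.57, 6.78, 6.47 and 7.80 in Irak1-/- arrays, and wt replicate 2 was its highest array. In pair 2 the wt array exceeded its Irak1-/- partner by 1.42, while in pair 1 the Irak1-/- array was higher by 0.98. The remaining probe set, 17300079, stayed between 3.11 and 3.85, under every array median.

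Trav9d-3 had 5 probe sets, of which 4 varied and 1 was nearly flat. Probe set 17299842 read 5.64, 5.95, 6.57 and 5.66 in wt and 6.29, 6.00, 6.48 and 7.03 in Irak1-/- arrays. Irak1-/- replicate 4 was highest there and also on 17299919, where it read 7.63 and the other 7 arrays lay between 6.48 and 6.87. Probe set 17300054 ranged from 5.75 to 6.89, with Irak1-/- replicate 3 highest. Probe set 17300181 ranged from 6.79 in Irak1-/- replicate 2 to 8.37 in wt replicates 1 and 3.

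The flat probe set was 17300247. It read 12.46, 12.45, 12.40 and 12.43 in wt and 12.50, 12.29, 12.40 and 12.47 in Irak1-/- arrays, an SD of 0.0668, at the 0.969 percentile of all probe sets. This SD was like that of Cd3d rather than those of the other probe sets named Trav9d-3, which ran from 0.353 to 0.525. Like Cd3d, at the 99.6 percentile of mean level, it was among the brightest probe sets, at the 99.97 percentile. Whether its low SD goes with that level was not tested. The annotation does not say which stretch of the receptor locus the probe set covers. The single Trav3-4 probe set, 17300189, lay between 7.73 and 8.46. Its SD of 0.258 was lower than that of most segment probe sets, but at the 69.2 percentile of all probe sets.

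The beta chain was represented by Trbv13-2, a V segment common in mouse T cells and also found in the receptors of invariant NKT cells. It read 8.40, 7.65, 8.10 and 8.05 in wt and 9.03, 9.33, 8.14 and 8.78 in Irak1-/- arrays. The highest value was in Irak1-/- replicate 2 and the lowest in the wt array of the same recipients, and the groups overlap only through Irak1-/- replicate 3. Zbtb16, the transcription factor that defines invariant NKT cells, lay between 4.03 and 4.42 on all arrays. Slamf6, the other measured marker of that list, which conventional T cells also express, read 8.72 to 9.50 on its brighter probe set. The summed level of both overlapped between genotypes, with 8.78 to 9.31 in wt and 8.98 to 9.54 in Irak1-/- arrays (log2).

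The gamma chain segments, used by gamma-delta T cells, read low. Trgv5 lay between 2.78 and 3.80 on the 8 arrays, under every array median. Trgv6 read 2.73, 2.83, 3.06 and 2.87 in wt and 2.96, 4.30, 2.90 and 2.96 in Irak1-/- arrays. The single high value, in Irak1-/- replicate 2, was 1.23 above the next array and within the range of the array medians. On that array Sox13 and Cd163l1, genes of gamma-delta T cells, had their highest levels, 5.48 and 6.03, against 4.82 to 5.44 and 5.02 to 5.67 on the other 7. Blk, another gene of these cells, read 4.24 there, within its range of 3.91 to 4.56. Maf, the last marker of the list, read 8.85 there on 1 probe set, within its range of 7.93 to 9.45, and 7.27 on another, the lowest of the 8 arrays. The summed level of the 4 measured gamma-delta markers overlapped between genotypes (8.44 to 9.43 in wt, 8.999 to 9.66 in Irak1-/- arrays, log2), and their part in the Trgv6 value was not tested.

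**Figure D3:**
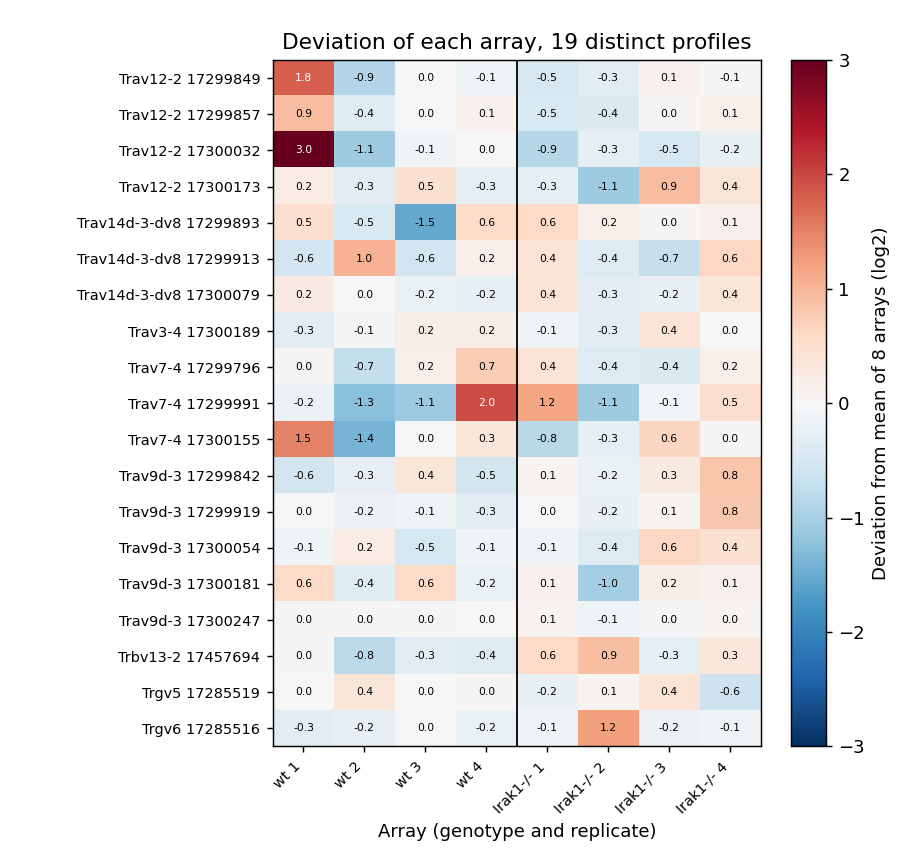
Deviation of each array (columns, wt left of the line) from the mean of the 8 arrays for the 19 distinct segment profiles (rows), on the log2 scale, with red above and blue below the mean. The strongest deviation, 3.0, is wt replicate 1 on Trav12-2 probe set 17300032. The highest cells of other rows are spread over several arrays, while the lowest cell of a row often lies in a replicate 2 column.

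The highest array differed from segment to segment, while the lowest was often an array of replicate 2. Wt replicate 1 was the highest array for 5 of the 19 profiles, 26.3%, and for 17.1% of all probe sets. Irak1-/- replicate 3 was highest for 4 profiles, 21.1%, and for 19.6% of all probe sets. The lowest array was wt replicate 2 for 6 of the 19 profiles and Irak1-/- replicate 2 for 5. These arrays, which form a pair with shared recipients, were lowest for 9.78% and 11.5% of all probe sets. Whether the low readings follow from the recipients was not tested. Within the wt arrays the SD exceeded that within the Irak1-/- arrays for 8 of 19 profiles, against 43.4% of all probe sets.

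Arrays that shared recipients differed in their V segments about as much as arrays that did not. Over the 19 profiles, the median absolute log2 difference between 2 arrays of a pair had a median of 0.459 over the 4 pairs, from 0.208 to 0.537. It was 0.492 over the 12 combinations of the same genotype and different recipients, from 0.233 to 0.745, and 0.467 over the 12 that shared neither. Over all probe sets the 3 medians were 0.187, 0.193 and 0.197. These combinations reuse the same 8 arrays and are given as a description.

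The comparison of genotypes asked whether Irak1-/- cells differed in V segment levels from the wt cells that had expanded beside them. The wt and Irak1-/- donors also differed in their CD45 mark, as given above, so genotype and donor line cannot be told apart. No segment passed the test. Of the 21 probe sets, 0 had an adjusted p under 0.05 in limma's paired fit over all 23521 probe sets, where 9, or 0.0383%, did. The segments' adjusted p ran from 0.734 to 0.995. At an unadjusted p under 0.05 there was 1 of 21, against 5.94% of all probe sets, a share close to the background. The differences, Irak1-/- minus wt, were positive for 8 and negative for 11 of the 19 profiles, with a median of -0.02 for both the segments and all probe sets.

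The probe set with the smallest p was Trbv13-2. The 4 wt arrays averaged 8.05 ± 0.310 (SD) and the 4 Irak1-/- arrays 8.82 ± 0.508. The fitted log2 difference was 0.77 (SE 0.234, limma adjusted p = 0.734). That is 1.70-fold, with a 95% confidence interval of 1.17 to 2.47-fold before adjustment. Both SE and interval are limma's, in which the variance of each probe set is drawn toward a value common to all. The SD of the pair differences was 0.682, so this interval is narrower than those differences alone would give. The Irak1-/- array was higher by 0.63, 1.68, 0.03 and 0.73 in pairs 1 to 4. It was the only segment whose difference had the same sign in all 4 pairs, as 13.4% of all probe sets had. Without pair 2 the difference was 0.46 (adjusted p = 0.959). Myeloid marker levels differed between the same groups as given above, and their part in this difference was not tested.

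The alpha segments showed large differences of opposite sign in different pairs. Trav12-2 probe set 17300032 had the most negative difference, -0.93 (SE 0.623, limma adjusted p = 0.923), made of -3.86, 0.78, -0.39 and -0.24 in pairs 1 to 4. Without pair 1 it was 0.05. Trav12-2 probe set 17299849 likewise went from -0.40 to 0.24 without that pair, and Trav7-4 probe set 17300155 from -0.22 to 0.48. Trav9d-3 probe set 17299842 had the smallest p among alpha segments, with 0.49 (SE 0.230, limma adjusted p = 0.863), positive in 3 of 4 pairs, and 0.20 without pair 4. Trav14d-3-dv8 probe set 17299893 had 0.46 and Trav7-4 probe set 17299991 0.28, each with 3 positive pairs and 1 negative. Without pair 3 the former was 0.09, and without pair 4 it was 0.76.

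The gamma segments did not pass either. Trgv6 had a difference of 0.41 (SE 0.246, limma adjusted p = 0.909), of which pair 2 gave 1.47, and Trgv5 had -0.18 (SE 0.172, adjusted p = 0.946).

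**Figure D4:**
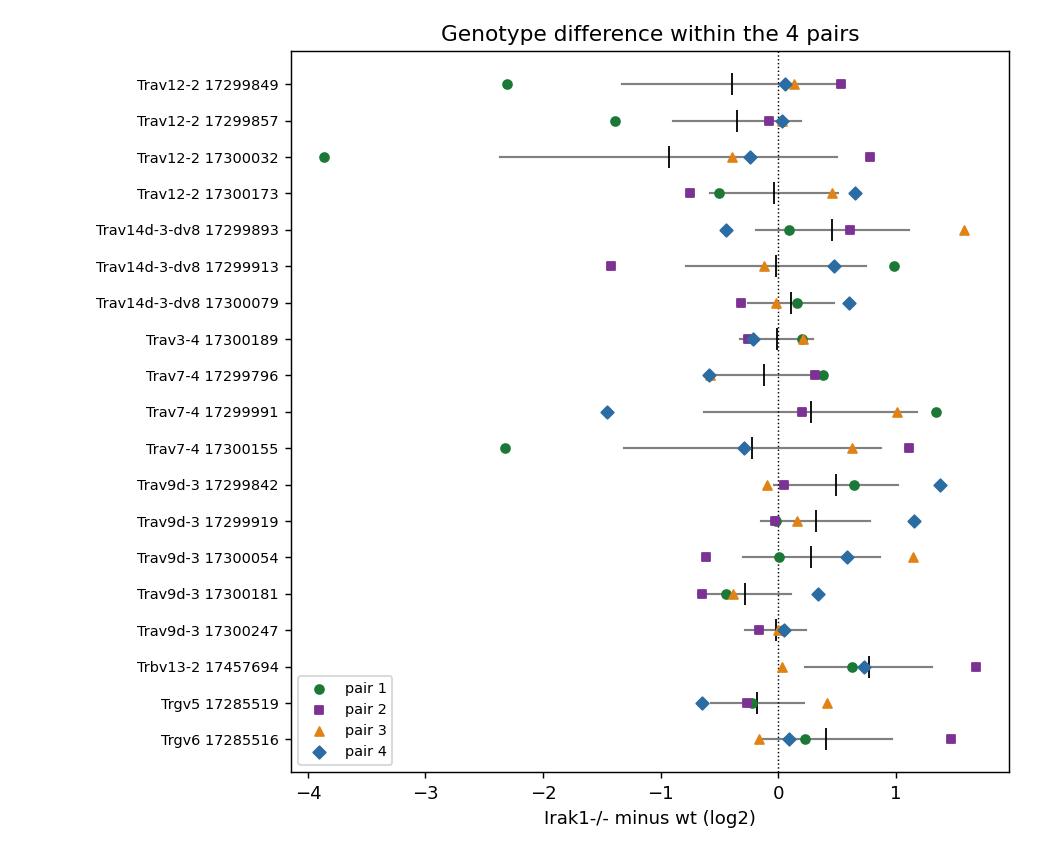
Irak1-/- minus wt on the log2 scale within each of the 4 pairs (symbols), with the limma estimate (black tick) and its unadjusted 95% confidence interval (grey line), for the 19 distinct profiles. Pair 1 reaches -3.86 for Trav12-2 probe set 17300032, and Trbv13-2 is the only row with all 4 pairs on the same side of 0.

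The segments' differences were estimated less precisely than those of most genes. The median half-width of the 95% confidence interval was 0.545 for the 19 profiles and 0.310 for all probe sets, and the median SD of the 4 pair differences was 0.694 for the segments and 0.263 for all. The flat Trav9d-3 probe set 17300247 had the narrowest interval, from -0.28 to 0.24 around a difference of -0.02. These intervals are unadjusted and use limma's variance, drawn toward a value common to all probe sets. They are thus narrower than the pair differences alone would give for widely spread probe sets, and wider for flat ones. A p above the threshold does not show that the genotypes had equal levels of a segment.

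Partner genes of the receptor did not pass either. Among 12 of 14 listed partner genes with a probe set of 1 symbol, 0 passed, beside 0.0383% of all probe sets. Their median difference was -0.04. Cd3d, Cd3e and Cd3g had -0.04, -0.03 and -0.05, with limma adjusted p between 0.981 and 0.989. Cd8a, a CD8 chain, had the smallest p, with -0.55 (limma adjusted p = 0.788), and Cd8b1, the other chain, had a difference of opposite sign, 0.31 (adjusted p = 0.941). Of the 12 partner genes 1, Cd8a, had an unadjusted p under 0.05, against 5.94% of all probe sets. Of the 7 measured CD8 and NK markers 0 passed, and their median difference was -0.05. Ncr1 lay under every array median. Added on the linear scale, the 7 summed to 10.14 to 10.41 in wt and 9.69 to 9.94 in Irak1-/- arrays (log2). Cd8a and Cd8b1, with mean levels of 4.31 and 5.49, made up little of that sum, which follows the brightest markers. How often sums of other genes separate the genotypes in this way was not counted. The mean log2 difference of the 7, Irak1-/- minus wt, was -0.05, -0.24, -0.17 and -0.26 in pairs 1 to 4. Neither the sum nor the mean was tested. Among 9 of 11 recombination and end joining genes, none passed, at limma adjusted p between 0.924 and 0.999, and 0 reached an unadjusted p under 0.05. With 0.0383% of all probe sets passing, lists as short as these would seldom hold a passing gene.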

How the data were processed

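The 8 arrays measured biotin-labelled total RNA, per the labels' protocols. The values, as the authors deposited them, are log2 levels of 41345 probe sets. How background, normalization and summarization were handled is not stated in the labels used here. Values ran from 0.681 to 14.0. Arrays have no read depth, and precision rests on their number. Probe sets were named by the platform annotation, in which 23521 carry 1 symbol, 1814 several and 16010 none here. Partner gene symbols were updated by gene identifier with RefSeq's GRCm38.p6 table.

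All probe sets with 1 symbol were fitted with limma 3.58.1 in R 4.3.3 (lmFit and eBayes) with the batch label as a block, two-sided, with Benjamini-Hochberg adjustment over all 23521 and no level filter. With a filter at the 40th percentile 18 of 21 segments would have remained. The labels give the batch, and its arrays share recipients. Deviations from the group means correlated within pairs at 0.116, 0.0766, 0.133 and 0.025 over all probe sets, and in pairs 2 and 4 the wt array correlated more with an Irak1-/- array of another number (0.135 and 0.0742). Whether the pooled recipients of different replicates also had different donors is not given, so p-values measure the spread between these pools. The fit was also run on simulated data, with an outcome that is not given here.

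Named probe sets are all members, which cover the rule's picks by p, SD and level in each class, plus fixed partner and recombination genes. Genes of that panel with no probe set of 1 symbol, among them Cd247, Lck, Rag1 and Trav11, were not analysed here. The mark of 2 times the median SD was chosen after the values were seen. The members and lists were chosen with earlier results of these data known. Alternatives were the block, normalization, level filters, probe set choice, eBayes settings and left-out replicates. Fits without the wt array of replicate 1 and with identical profiles counted once were added after the data were seen.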

Additional observations from a re-analysis of the deposited data

Results flagged for a closer look

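Within each genotype, the highest or lowest of 4 arrays was set against the nearest other array, relative to the group's range. Of 80 groups checked, 8 had an array far from the rest, where about 1 in 20 groups is expected by chance, or 4. Among the 38 groups of receptor segments there were 3. Trgv6 read 4.30 in Irak1-/- replicate 2 and at most 2.96 in the other Irak1-/- arrays. Trgv5 read 3.75 in wt replicate 2, above 3.42 in the next wt array. Trav9d-3 probe set 17300181 read 6.79 in Irak1-/- replicate 2, under 7.93 in the next Irak1-/- array. The 5 others were partner or recombination genes. Cd3e read 10.63 and Cd4 8.86 in wt replicate 1, the lowest of the wt arrays, beside 10.74 and 9.09. Cd5 read 10.23 in wt replicate 2, above 9.82. Dntt read 3.27 in Irak1-/- replicate 1, above 3.06, and Atm read 6.51 in wt replicate 4, under 6.67.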

How the results depend on the processing

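No segment passed under any of the 16 alternatives, the lowest adjusted p being 0.378. Without the replicate block, again 0 segments passed, with a lowest adjusted p of 0.908, and the block changed no segment's call. Over all probe sets 10 passed without it and 10 with the batch as a random block, against 9. With all probe sets of the table tested, 0 of 41345 passed, and leaving out pairs in turn gave 1 to 16 passing probe sets in all. At an unadjusted p under 0.05 there were 1 to 4 segments with a pair left out, and 2 with quantile normalization or with eBayes trend and robust settings. The segments' median SD was 0.449 to 0.583 with a pair left out, and 0.427 without wt replicate 1. Their median level, 7.67, was 8.24 with 1 probe set per symbol and 7.17 with identical profiles counted once, since other probe sets then enter the median. With a pair left out it ran from 7.52 to 7.85. With 1 probe set per symbol, 5 of 8 exceeded 2 times the median SD.

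Of 314 refitted segment differences 25 turned sign, and none was called. With quantile normalization 17299913 turned to 0.0064 and 17300189 to 0.025, and with median centring 17300189 to 0.0041. Without the block and Irak1-/- replicate 3, 17299796 was 0.0040 and 17299913 was 0.21. Without the block and wt replicate 1, 17299849 and 17299926 were 0.14, 17300155 was 0.24 and 17300173 was 0.028. With a pair left out, differences ran from -0.71 to 0.24 for 17299849 and 17299926, -1.50 to 0.049 for 17300032, -0.27 to 0.20 for 17300173, -0.36 to 0.45 for 17299913, -0.059 to 0.25 for 17300079, -0.088 to 0.065 for 17300189, -0.28 to 0.039 for 17299796, -0.080 to 0.85 for 17299991, -0.66 to 0.48 for 17300155, -0.0046 to 0.58 for 17300054 and -0.042 to 0.028 for 17300247. The cause of these turns of sign was not tested.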
